A study of Mus musculus with 28 samples.

Results

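The angiogenic factors described here are 10 secreted proteins that act on blood or lymphatic vessels: the vascular endothelial growth factors Vegfa, Vegfb, Vegfc and Vegfd, placental growth factor (Pgf), the angiopoietins Angpt1 and Angpt2, angiopoietin-like 4 (Angptl4), apelin (Apln) and adrenomedullin (Adm). They were taken by their symbols from the read count table, and all 10 were found among its 54429 gene identifiers, of which 28192 had at least 1 read. The RNA came from O9-1 cells, 1 mouse line of cranial neural crest, the embryonic tissue that forms much of the face. Its 28 sequenced libraries comprise 8 groups: 4 cultures at 21% O2 (normoxic, 4 libraries each) and the same 4 cultures at 0.5% O2 (hypoxic, 3 libraries each). The series title states that the study asked how hypoxia affects differentiation into derivatives relevant for palate formation.

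Proliferating cells were kept in conditioned DMEM with fetal calf serum, bFGF and LIF. Smooth muscle cultures received DMEM with serum for 3 days. Osteoblast cultures spent 10 days in alpha-MEM with serum, beta-glycerophosphate, dexamethasone and BMP-2. For chondrocytes, osteogenic medium for 3 days preceded micromass culture on matrigel for 7 days, in alpha-MEM with insulin-transferrin-selenium, dexamethasone, TGF-beta3 and BMP-2. Each of these 4 cultures was made at both oxygen levels, so length of culture, medium and substrate differ between the culture types and cannot be told apart from lineage. The labels do not say that libraries of a group come from separate cultures, so p-values measure the spread between these libraries, which may be technical. These are bulk samples, in which fewer cells of a type and less RNA per cell cannot be told apart.

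Vegfa acts on endothelial cells mainly through the receptor tyrosine kinase Kdr, while Flt1 binds Vegfa, Vegfb and Pgf, and Flt4 binds Vegfc and Vegfd, the ligands best known for lymphatic growth. Neuropilins (Nrp1, Nrp2) serve as co-receptors. Angpt1 activates the endothelial receptor Tek and steadies vessels, Angpt2 competes with it at the same receptor, and Angptl4 inhibits lipoprotein lipase. Apelin signals through Aplnr, and adrenomedullin through Calcrl paired with a Ramp protein. In low oxygen the transcription factor HIF is stabilised and binds short elements with the core letters ACGTG or GCGTG near its target genes, of which Vegfa and Adm are textbook cases.

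All 10 genes are protein-coding in the mouse annotation of the mm10 build. Vegfa (ENSMUSG00000023951) lies at chr17:46016993-46032369, Vegfb (ENSMUSG00000024962) at chr19:6982473-6987651, Vegfc (ENSMUSG00000031520) at chr8:54077606-54187096 and Vegfd (ENSMUSG00000031380) at chrX:164373378-164402650. Pgf (ENSMUSG00000004791) lies at chr12:85166635-85177790, Angpt1 (ENSMUSG00000022309) at chr15:42424723-42676977, Angpt2 (ENSMUSG00000031465) at chr8:18690263-18741562 and Angptl4 (ENSMUSG00000002289) at chr17:33773750-33781830. Apln (ENSMUSG00000037010) lies at chrX:48025146-48034853 and Adm (ENSMUSG00000030790) at chr7:110627661-110629820. Angpt2 lies within the gene Mcph1, on the opposite strand. Mcph1 had 18852 reads over the 28 libraries and Angpt2 1348, and the use of strand in counting is not given in the sources used here, so the Angpt2 values are uncertain. The antisense genes that overlap Angpt1 (Gm17473) and Adm (Gm28863) had 142 and 60 reads, against 16069 and 64906 for the members.

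The 250 bases before a RefSeq start (build GRCm38.p6) are shown for the genes with wide responses to oxygen in the sections that follow, Adm, Apln and Vegfa, and for Vegfb, whose normoxic levels were among the highest per length. Capitals mark ACGTG or GCGTG on either strand, so that CACGC is GCGTG read on the other strand. Windows that overlap an annotated exon are not printed.
Adm, chr7:110627407-110627656, plus strand: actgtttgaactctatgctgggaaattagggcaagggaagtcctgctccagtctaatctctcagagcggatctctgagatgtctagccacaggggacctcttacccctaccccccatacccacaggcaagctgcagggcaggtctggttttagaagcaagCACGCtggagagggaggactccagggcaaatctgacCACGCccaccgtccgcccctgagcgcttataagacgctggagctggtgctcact
Apln, chrX:48034854-48035103, minus strand: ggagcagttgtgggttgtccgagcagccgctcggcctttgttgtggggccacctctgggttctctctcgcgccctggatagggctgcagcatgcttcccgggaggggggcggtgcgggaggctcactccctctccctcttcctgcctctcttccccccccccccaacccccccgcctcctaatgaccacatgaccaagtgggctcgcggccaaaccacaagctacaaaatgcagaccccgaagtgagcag
Vegfa, chr17:46032378-46032627, minus strand: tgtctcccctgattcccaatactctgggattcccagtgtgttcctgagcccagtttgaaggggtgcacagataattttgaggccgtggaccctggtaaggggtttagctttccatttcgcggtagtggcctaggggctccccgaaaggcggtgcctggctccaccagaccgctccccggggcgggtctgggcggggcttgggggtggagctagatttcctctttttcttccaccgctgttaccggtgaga
Vegfb, chr19:6987652-6987901, minus strand: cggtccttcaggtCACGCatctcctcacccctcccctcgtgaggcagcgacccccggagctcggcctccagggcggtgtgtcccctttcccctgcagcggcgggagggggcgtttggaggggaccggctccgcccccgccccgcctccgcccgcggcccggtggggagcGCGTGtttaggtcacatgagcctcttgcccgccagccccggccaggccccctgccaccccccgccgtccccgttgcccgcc
Adm holds 2 matches, whose first bases lie at positions -90 and -54 relative to the start, and Vegfb holds 2, at -237 and -81. Neither the Apln window nor the Vegfa window at its first listed start holds a match, while the Vegfa window at its other listed start, not printed, holds 2, at -218 and -211. With 50 bases after the start added, the RefSeq table gave 9 windows for 7 of the 10 genes, and 4 of them (44.4%) held ACGTG or GCGTG. Among all 32544 promoter windows of the table the share was 44%, so the members' windows are not set apart by these letters. A match is only a match of letters, and elements outside these windows were not searched.

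Libraries held 19869271 to 64693346 counted reads. The 3 hypoxic smooth muscle libraries stand apart: mitochondrial ribosomal RNA made up 11.6 to 13.3% of their reads, against at most 0.0889% in the other 25. Levels are given as counts per 1000000 of library size scaled by the trimmed mean of M values (CPM below), and the mean scaling factor was 0.518 in that group against 0.914 to 1.28 in the others. With scaling by library size alone, the median log2 change of all genes tested in hypoxic against normoxic smooth muscle was -1.49 instead of -0.12, so changes of the members in that group are also given on that scale. Without mitochondrial genes and Rn7sk in the scaled fit, that median was still -0.12, and 9 members were called for oxygen in smooth muscle cultures, as many as with them. Smooth muscle markers (7 genes) summed to 95.0 to 119 CPM in the hypoxic smooth muscle libraries, close to normoxic proliferating cells (94.3 to 103 CPM). They summed to 3579 to 4043 CPM in normoxic smooth muscle, 3647 to 5175 CPM in normoxic osteoblast and 2077 to 2534 CPM in normoxic chondrocyte libraries. This list thus does not set normoxic smooth muscle cultures apart from normoxic osteoblast cultures. Of 7 tested osteoblast markers, 4 were higher and 2 lower in normoxic osteoblast against proliferating cells, and 7 higher in the hypoxic ones. The late markers Ibsp (1.13 CPM) and Bglap (0.121 CPM) were low in normoxic osteoblast cultures, and Ibsp was highest in the chondrocyte cultures. All 8 osteoblast markers summed to 38598 to 47003 CPM in normoxic chondrocyte libraries and to 6711 to 10511 CPM in normoxic osteoblast libraries. Low oxygen raised 5 of 7 osteoblast markers in osteoblast cultures and lowered 4 of 8 in chondrocyte cultures. It lowered 5 of 7 chondrocyte markers in chondrocyte cultures and raised 0 (median log2 change -3.15). The 8 chondrocyte markers summed to 7435 to 15175 CPM in normoxic and 5502 to 5823 CPM in hypoxic chondrocyte libraries, the latter with 0 reads of Matn1, and the part of this in the chondrocyte oxygen changes of the members was not tested. The neural crest markers Twist1 and Tfap2a were present in every group, while Sox10 and Tfap2b were at or near 0. Of 10 endothelial markers, Cldn5, Robo4 and Sox17 were at or near 0 in every group and Cdh5 reached at most 0.150 CPM, and the summed level of the list, from 15.0 to 344 CPM, came mostly from Ptprb and Egfl7.

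Each angiogenic factor had its own order of groups, and the highest group mean was 11.4 to 61.1 times the lowest. Vegfa was highest in hypoxic chondrocyte cultures (487 ± 25.7 CPM, mean ± SD, n = 3), Vegfb in hypoxic smooth muscle cultures (232 ± 36.7 CPM, n = 3), and Apln in hypoxic proliferating cells (279 ± 4.53 CPM, n = 3). Vegfc, Vegfd and Adm were highest in hypoxic osteoblast cultures, and Pgf in hypoxic chondrocyte cultures. Angptl4 had its highest mean in hypoxic smooth muscle cultures, where it overlapped the normoxic smooth muscle libraries and was lower than them by library size alone (log2 -0.94). Angpt1 and Angpt2 had their highest means in normoxic smooth muscle cultures. Several neighbours in these orders overlap: hypoxic osteoblast and chondrocyte cultures could not be ordered for Vegfc or Pgf, nor the 2 osteoblast groups for Vegfd, and for Angpt2 every neighbouring pair of groups overlapped.

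**Figure D1:**
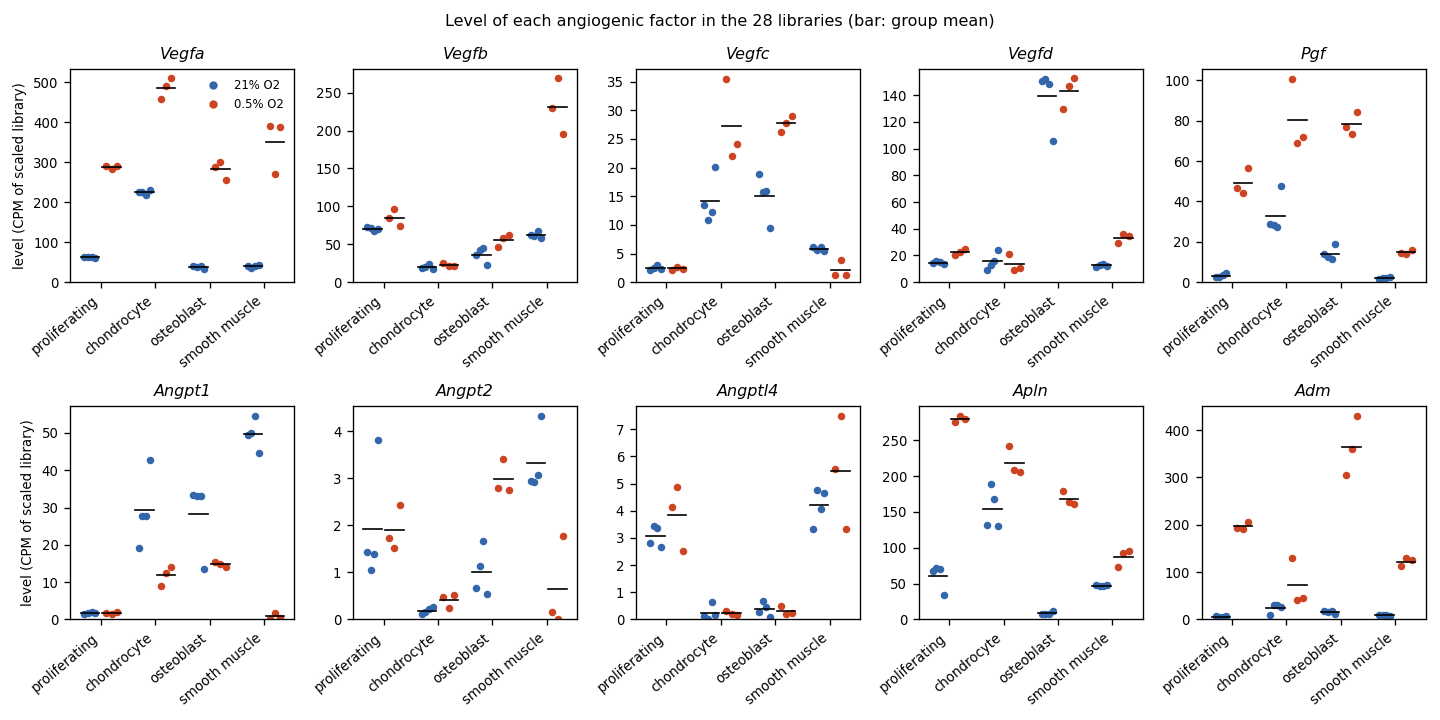
Level of each angiogenic factor (vertical axis, CPM of scaled library size, own scale for each gene) in the 4 cultures (horizontal axis); each point is 1 library, blue at 21% O2 (n = 4 per culture) and red at 0.5% O2 (n = 3), and bars are group means. Hypoxic Vegfa, Pgf and Adm points lie above the normoxic points of the same culture in all 4 cultures, while hypoxic Angpt1 in smooth muscle cultures lies near 0.

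Compared per length, as CPM per kilobase of exon, the leading factor changed with culture and oxygen. Vegfb led in normoxic proliferating cells, at 44 ± 1.26 CPM per kb (mean ± SD, n = 4), 48.0% of the summed level of the 10 genes, and in normoxic smooth muscle cultures, with 43.9%. Vegfd led in normoxic osteoblast cultures, at 57.8 ± 9.19 CPM per kb and 48.8% of the sum. In normoxic chondrocyte cultures Vegfa (52.5 ± 1.09 CPM per kb) and Apln (49.1 ± 9.05 CPM per kb) stood within their spread of each other. At 0.5% O2, Adm led in proliferating cells (122 ± 4.87 CPM per kb, n = 3) and in osteoblast cultures (225 ± 38.7 CPM per kb), where it made up 46.8% of the sum. Vegfa led in hypoxic chondrocyte cultures, with 39.4% of the sum, and Vegfb in hypoxic smooth muscle cultures, with 41.1%.

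**Figure D2:**
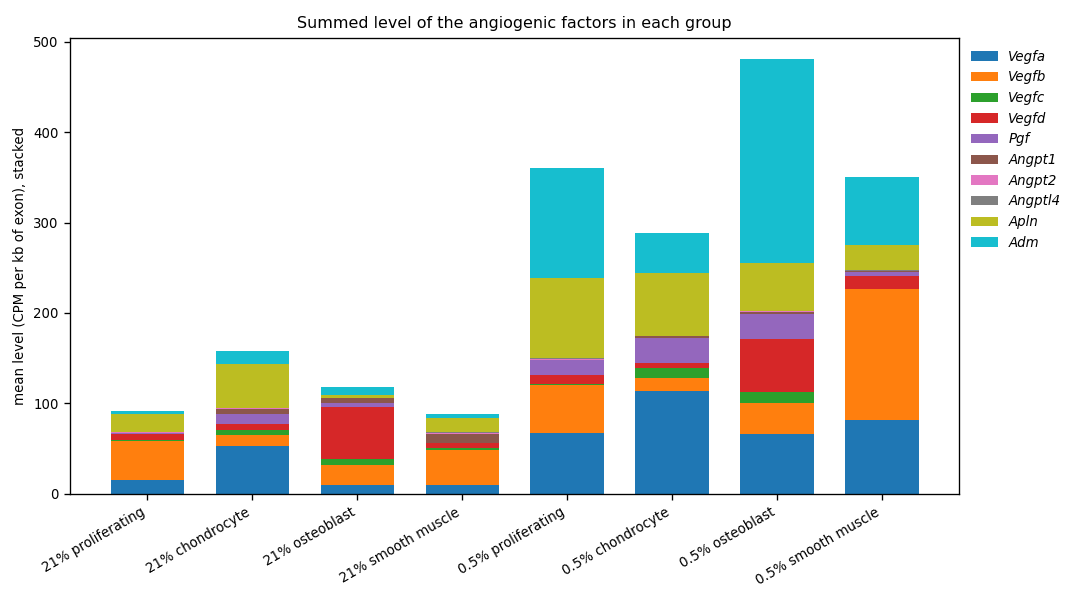
Mean level of the 10 genes in each group, stacked (vertical axis, CPM per kilobase of exon; horizontal axis, the 8 groups, n = 4 at 21% O2 and n = 3 at 0.5% O2). Adm takes up the largest section in hypoxic proliferating and osteoblast cultures (46.8% in the latter), and Vegfb the largest in both smooth muscle groups and in normoxic proliferating cells.

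Low oxygen raised more of the angiogenic factors than it lowered in each culture, except in smooth muscle cultures scaled by library size alone. In proliferating cells 6 of 10 were higher and 0 lower, where 33.1% of all genes tested were called higher and 32.3% lower by edgeR's quasi-likelihood test (adjusted p under 0.05). The members' median log2 change was 0.52 and that of all genes 0.015. In chondrocyte cultures 8 members had enough reads to be tested, of which 4 were higher and 1 lower, against 10.4% and 11.8% of all genes, with medians of 0.71 and -0.0058. In osteoblast cultures 7 of 10 were higher and 1 lower, against 27.0% and 27.3% of all genes, with medians of 1.23 and -0.032. In smooth muscle cultures 6 of 10 were higher and 3 lower, against 35.4% and 40.2% of all genes, with medians of 1.21 and -0.12. With library size alone as the scale, 4 members were higher and 5 lower in smooth muscle cultures, with a median of -0.17. In chondrocyte cultures the count of members called went from 5 to 3 without hypoxic replicate 1, and the count of all genes called from 3157 to 2091 without hypoxic replicate 3. Of all genes called, 46.9% were higher in chondrocyte, 49.6% in osteoblast and 46.8% in smooth muscle cultures, and by library size alone 31.8%, 36.9% and 15.6%. By this test Vegfa, Pgf and Apln rose in all 4 cultures and Adm in 3, and Angptl4 was called in none of the 3 cultures in which it was tested.

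**Figure D3:**
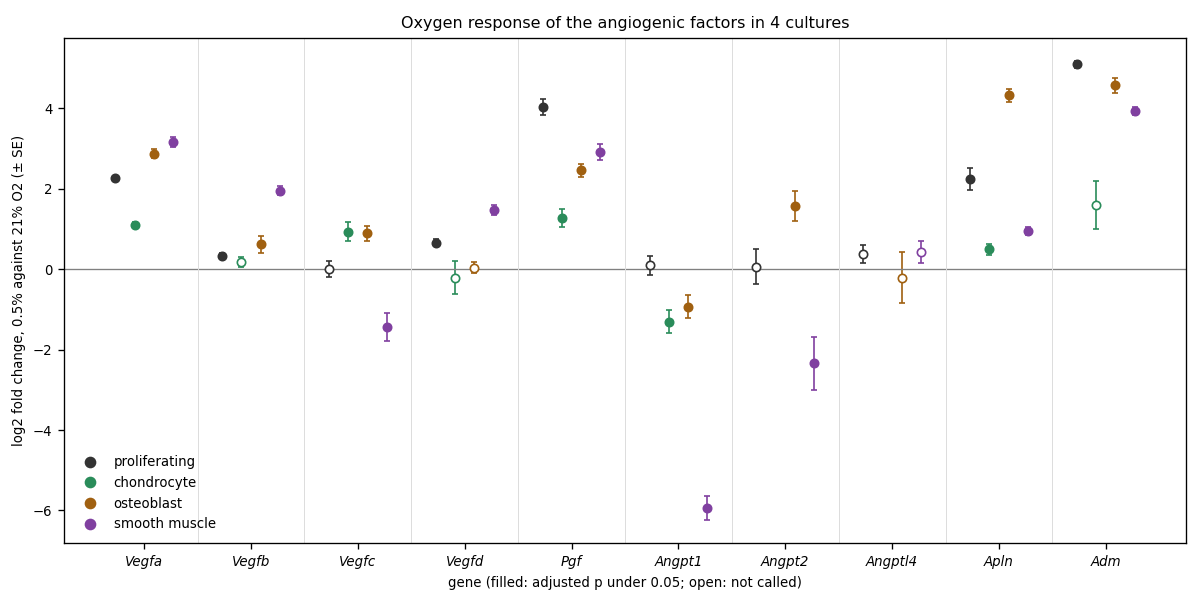
Log2 fold change at 0.5% against 21% O2 (vertical axis) of each gene (horizontal axis) in the 4 cultures (colours), with the SE of the fit as bars and filled points for adjusted p under 0.05. Vegfa and Pgf are filled and above 0 in each culture, and the lowest point is Angpt1 in smooth muscle cultures, at -5.94.

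Differentiation moved the factors in both directions. Normoxic chondrocyte against normoxic proliferating cells showed 6 members higher and 3 lower, where 37.7% and 37.2% of all genes were called in those directions, with medians of 1.67 for the members and -0.0029 for all genes. Normoxic osteoblast cultures had 5 higher and 4 lower (40.9% and 37.8% of all genes), with medians of 0.38 and 0.066. Normoxic smooth muscle cultures had 5 higher and 3 lower (40.8% and 38.9%), with medians of 0.19 and 0.028. The last count of 8 members called was 5 without normoxic smooth muscle replicate 1 or 2. For chondrocyte cultures 50.3% of all genes called were higher, and 34.7% by library size alone. These shares of all genes are so large that the members' counts alone do not set them apart.

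At 0.5% O2, with hypoxic proliferating cells as the reference, chondrocyte cultures had 4 members higher and 4 lower, against 34.9% and 34.6% of all genes, with medians of -0.55 and -0.021, and by library size alone 3 higher and 6 lower. Osteoblast cultures had 6 higher and 3 lower (36.2% and 35.1%), with medians of 0.66 and 0.0010. Smooth muscle cultures had 3 higher and 3 lower (33.8% and 36.2%), with medians of -0.33 and -0.073, and by library size alone 0 higher and 8 lower, with a median of -1.62. Of all genes called, 50.2%, 50.8% and 48.3% were higher in chondrocyte, osteoblast and smooth muscle cultures, and by library size alone 31.8%, 38.2% and 15.0%. The 3 comparisons at each oxygen level share their proliferating libraries.

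**Figure D4:**
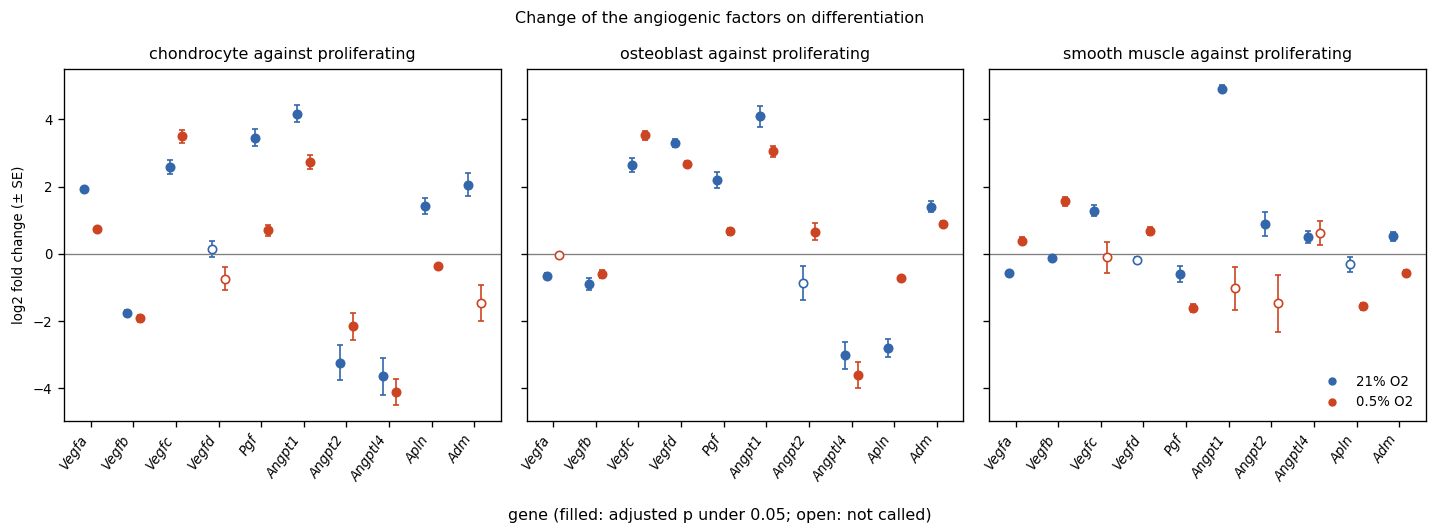
Log2 fold change of each gene (horizontal axis) in chondrocyte, osteoblast and smooth muscle cultures against proliferating cells (3 panels), at 21% O2 (blue) and 0.5% O2 (red), with the SE of the fit as bars and filled points for adjusted p under 0.05. Angpt1 is the highest normoxic point in each panel, at 4.17, 4.09 and 4.92.

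Whether the oxygen response differed from that of proliferating cells was tested as an interaction, the log2 oxygen response of the culture minus that of proliferating cells. For chondrocyte cultures 1 member had a higher response and 5 a lower one, against 21.6% and 21.9% of all genes, with medians of -1.0 and -0.032. For osteoblast cultures 4 were higher and 3 lower, against 28.9% and 25.3%, with medians of -0.071 and 0.0023. For smooth muscle cultures 3 were higher and 6 lower, against 34.9% and 35.5%, with medians of -1.09 and -0.042. On library size alone the last became 1 higher and 9 lower, with a median of -2.42, and the share of higher among all genes called went from 49.6% to 16.6%.

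Vegfa, the principal endothelial growth factor, rose at 0.5% O2 in every culture, and it also rose in normoxic chondrocyte cultures. Proliferating cells held Vegfa at 61.8, 63.9, 63.8 and 61.3 CPM at 21% O2 and 292, 284 and 291 CPM at 0.5% O2. Chondrocyte cultures held Vegfa at 225, 226, 219 and 229.8 CPM at 21% O2 and 459, 491 and 510.0 CPM at 0.5% O2. No hypoxic library overlapped its normoxic counterparts in either culture, and the rise was 4.79-fold in proliferating cells (log2 2.26, SE 0.043, adjusted p = 6.97e-14) and 2.15-fold in chondrocyte cultures (SE 0.064, adjusted p = 9.47e-07). Osteoblast cultures held Vegfa at 40.4, 38.8, 41.5 and 32.8 CPM at 21% O2 and 289, 301 and 257 CPM at 0.5% O2. Smooth muscle cultures held Vegfa at 41.4, 36.6, 40.9 and 44.1 CPM at 21% O2 and 391, 272 and 387 CPM at 0.5% O2. The rises were 7.36-fold (SE 0.10, adjusted p = 1.63e-07) and 8.97-fold (SE 0.12, adjusted p = 3.50e-12), the latter a log2 change of 3.17, or 1.8 by library size alone.

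The smaller oxygen response of Vegfa in chondrocyte cultures went with a higher normoxic level. Normoxic chondrocyte cultures exceeded normoxic proliferating cells 3.78-fold (log2 SE 0.048, adjusted p = 1.33e-11). The interaction was -1.14 (SE 0.072, adjusted p = 2.46e-09). Osteoblast and smooth muscle cultures at 21% O2 had less Vegfa than proliferating cells, by log2 changes of -0.66 (adjusted p = 2.13e-05) and -0.57 (adjusted p = 5.17e-07), and larger oxygen responses, with interactions of 0.66 and 0.95 (adjusted p = 8.39e-05 and 1.23e-06). On library size alone the smooth muscle interaction was -0.39. Among hypoxic groups, chondrocyte cultures exceeded proliferating cells 1.68-fold (adjusted p = 1.43e-07), the osteoblast difference was -0.037 (adjusted p = 0.650, not called; -0.27 by library size alone, adjusted p = 0.00378, called), and the smooth muscle difference was 0.40 (adjusted p = 0.0103), which lost its call without hypoxic smooth muscle replicate 3 (0.31, adjusted p = 0.0623) and was -0.88 by library size alone.

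Pgf, which binds Flt1 but not Kdr, had a wider oxygen response than Vegfa in proliferating cells. Pgf stood at 2.45, 2.46, 3.41 and 4.62 CPM at 21% O2 and 46.8, 44 and 56.5 CPM at 0.5% O2 in proliferating cells. Pgf stood at 29, 28.1, 27.4 and 47.5 CPM at 21% O2 and 101, 68.7 and 71.9 CPM at 0.5% O2 in chondrocyte cultures. The groups did not overlap, and Pgf rose 16.4-fold in proliferating cells (log2 SE 0.20, adjusted p = 1.61e-07) and 2.42-fold in chondrocyte cultures (SE 0.23, adjusted p = 0.00769). Pgf stood at 13.8, 12.5, 11.4 and 19 CPM at 21% O2 and 76.7, 73.6 and 84.4 CPM at 0.5% O2 in osteoblast cultures. Pgf stood at 1.75, 2.09, 1.97 and 2.36 CPM at 21% O2 and 14.6, 14.2 and 15.7 CPM at 0.5% O2 in smooth muscle cultures. The rises were 5.51-fold (SE 0.17, adjusted p = 4.66e-06) and 7.55-fold (SE 0.20, adjusted p = 3.07e-09), the latter 2.92 on the log2 scale and 1.55 by library size alone.

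Pgf also rose with chondrocyte and osteoblast culture at 21% O2, 11-fold (adjusted p = 8.42e-07) and 4.6-fold (adjusted p = 2.18e-05). Its oxygen response was lower than in proliferating cells in all 3 cultures, with interactions of -2.74, -1.51 and -1.06 (adjusted p = 4.98e-05, 5.06e-04 and 8.62e-04), the last -2.39 by library size alone. In normoxic smooth muscle cultures Pgf had a log2 change of -0.59 (adjusted p = 0.0275), a call lost without any of 5 of the 8 libraries (highest adjusted p = 0.0972, without normoxic proliferating replicate 4, where the change was -0.38) and by library size alone (-0.51, adjusted p = 0.0530). Among hypoxic groups it was 1.63-fold and 1.59-fold higher in chondrocyte and osteoblast cultures (adjusted p = 0.00580 and 1.24e-05; the former 0.37 by library size alone, adjusted p = 0.0585, not called) and lower in smooth muscle cultures, with a log2 change of -1.61 (adjusted p = 5.51e-07; -2.88 by library size alone).

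Vegfb, another Flt1 ligand and one not usually counted among the strong hypoxia-induced genes, had its largest oxygen response in smooth muscle cultures. Smooth muscle cultures held Vegfb at 62.8, 60.7, 67 and 58.3 CPM at 21% O2 and 230.3, 269 and 196 CPM at 0.5% O2, a 3.89-fold rise (log2 1.96, SE 0.10, adjusted p = 1.44e-10). On library size alone the log2 change was 0.59 (adjusted p = 7.44e-05). Proliferating cells held Vegfb at 72.5, 71.6, 67.8 and 70.4 CPM at 21% O2 and 85, 96.9 and 73.6 CPM at 0.5% O2. The 3 hypoxic libraries lay above all 4 normoxic ones, by 1.25-fold (SE 0.077, adjusted p = 0.00219). Osteoblast cultures held Vegfb at 36.3, 42.4, 44.4 and 22.6 CPM at 21% O2 and 46.8, 58.9 and 62.5 CPM at 0.5% O2. That 1.54-fold rise (SE 0.22, adjusted p = 0.0368) lost its call without normoxic osteoblast replicate 1 or hypoxic osteoblast replicate 2 or 3 (highest adjusted p = 0.12). Chondrocyte cultures held Vegfb at 18.5, 20.1, 23.5 and 17.6 CPM at 21% O2 and 25.2, 21.5 and 21.4 CPM at 0.5% O2, ranges that overlap (log2 0.18, SE 0.11, adjusted p = 0.298).

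Chondrocyte culture lowered Vegfb at both oxygen levels, where Vegfa was raised. Vegfb fell by 1.75 at 21% O2 (log2, SE 0.083, adjusted p = 2.45e-09) and by 1.92 at 0.5% O2 (SE 0.11, adjusted p = 8.10e-09). In osteoblast cultures it fell by 0.90 (adjusted p = 0.00102) at 21% O2 and by 0.61 at 0.5% O2 (adjusted p = 2.81e-04). The normoxic smooth muscle change of -0.13 (adjusted p = 0.0471) lost its call without any of 5 of the 8 libraries (highest adjusted p = 0.116) and by library size alone (-0.050, adjusted p = 0.435). Hypoxic smooth muscle cultures exceeded hypoxic proliferating cells 2.96-fold (adjusted p = 7.38e-07), with a log2 change of 0.28 by library size alone (adjusted p = 0.0575). The only interaction called for Vegfb was that of smooth muscle, 1.67 (SE 0.14, adjusted p = 3.33e-10; 0.33 by library size alone).

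The ratio of Vegfa to Vegfb reads within a library, which no scaling factor touches, shows how the balance of these 2 genes moved. It was 0.890 ± 0.038 in normoxic proliferating cells (mean ± SD, n = 4), 11.4 ± 1.61 in chondrocyte, 1.10 ± 0.250 in osteoblast and 0.658 ± 0.071 in smooth muscle cultures. At 0.5% O2 it was 3.44 ± 0.510, 21.6 ± 2.98, 5.13 ± 1.03 and 1.56 ± 0.499 in the same order (n = 3). Each hypoxic group lay above its normoxic counterpart without overlap, and chondrocyte cultures lay above all others at the same oxygen level. These are ratios of reads, not corrected for the lengths of the genes.

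Vegfc, a ligand of Flt4 and the main lymphatic growth factor, was low in proliferating cells and rose in osteoblast and chondrocyte cultures. Vegfc stood at 2.12, 2.39, 3.05 and 2.38 CPM at 21% O2 and 2.21, 2.73 and 2.26 CPM at 0.5% O2 in proliferating cells, with no difference called (log2 0.0099, SE 0.20, adjusted p = 0.968). Vegfc stood at 18.9, 15.7, 15.9 and 9.42 CPM at 21% O2 and 26.2, 27.9 and 29 CPM at 0.5% O2 in osteoblast cultures. Vegfc stood at 13.5, 10.8, 12.3 and 20.1 CPM at 21% O2 and 35.5, 22.1 and 24.2 CPM at 0.5% O2 in chondrocyte cultures. Hypoxic libraries lay above all normoxic ones in both, by 1.85-fold (SE 0.19, adjusted p = 0.00416) and 1.92-fold (SE 0.24, adjusted p = 0.0232). The chondrocyte call was lost without normoxic chondrocyte replicate 1 or 3 or hypoxic chondrocyte replicate 1 (highest adjusted p = 0.0661). Vegfc stood at 6.09, 5.58, 6.21 and 5.42 CPM at 21% O2 and 1.2, 3.79 and 1.3 CPM at 0.5% O2 in smooth muscle cultures, the only culture in which Vegfc fell (log2 -1.45, SE 0.35, adjusted p = 0.00158). Without hypoxic smooth muscle replicate 2 that change was -2.18, and by library size alone it was -2.82.

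On differentiation, Vegfc rose 6.03-fold in chondrocyte, 6.26-fold in osteoblast and 2.44-fold in smooth muscle cultures at 21% O2 (adjusted p = 2.30e-07, 2.07e-06 and 1.27e-06). Its rises at 0.5% O2 were 11.3-fold and 11.5-fold in chondrocyte and osteoblast cultures (adjusted p = 1.57e-08 and 2.83e-12), while the smooth muscle change was -0.095 (SE 0.46, adjusted p = 0.865; -1.38 by library size alone, adjusted p = 0.0147). The interactions were 0.94, 0.92 and -1.42 in chondrocyte, osteoblast and smooth muscle cultures (adjusted p = 0.0218, 0.00953 and 0.00420). The chondrocyte interaction lost its call without hypoxic proliferating replicate 1 or 3 or hypoxic chondrocyte replicate 1 (highest adjusted p = 0.0589), and the smooth muscle one was -2.14 without hypoxic smooth muscle replicate 2 and -2.76 by library size alone.

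Vegfd, the close relative of Vegfc, marked the osteoblast cultures, and there oxygen made no detectable difference. Osteoblast cultures held Vegfd at 150.3, 152, 148 and 106 CPM at 21% O2 and 129.9, 147 and 153 CPM at 0.5% O2. The ranges overlapped, with a log2 change of 0.040 (SE 0.13, adjusted p = 0.814). Against proliferating cells Vegfd was 9.8-fold higher at 21% O2 (log2 SE 0.12, adjusted p = 1.01e-08) and 6.37-fold higher at 0.5% O2 (SE 0.091, adjusted p = 9.08e-13). Proliferating cells held Vegfd at 14.6, 15.5, 15 and 13.7 CPM at 21% O2 and 20.2, 22.6 and 24.5 CPM at 0.5% O2, a 1.58-fold rise without overlap (SE 0.086, adjusted p = 1.15e-05). Chondrocyte cultures held Vegfd at 9.44, 13.2, 15.5 and 24 CPM at 21% O2 and 21.1, 9.05 and 10.3 CPM at 0.5% O2. Their ranges overlapped, and no change of Vegfd was called there for oxygen (-0.21, SE 0.41) or against proliferating cells (0.15 at 21% O2 and -0.74 at 0.5% O2). The last was called by library size alone (-1.07, adjusted p = 0.0233), and was -1.20 without hypoxic chondrocyte replicate 1 and then called (adjusted p = 1.13e-08).

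Smooth muscle cultures held Vegfd at 11.4, 12.6, 13.7 and 12.3 CPM at 21% O2 and 29.2, 36 and 34.5 CPM at 0.5% O2, a 2.77-fold rise (SE 0.12, adjusted p = 4.43e-08). That log2 change of 1.47 became 0.096 by library size alone (adjusted p = 0.477). At 21% O2 smooth muscle cultures differed from proliferating cells by -0.18 (adjusted p = 0.0707, not called), a change called without normoxic proliferating replicate 4 or normoxic smooth muscle replicate 3. At 0.5% O2 they differed by 0.69 (adjusted p = 4.73e-04), or -0.59 by library size alone. The interactions called were -0.58 in osteoblast cultures (adjusted p = 0.00535) and 0.85 in smooth muscle cultures (adjusted p = 3.55e-05; -0.49 by library size alone). That of chondrocyte cultures was -0.85 (adjusted p = 0.134, not called). It ranged from -1.33 to -0.56 leaving out 1 library each, and some of these edgeR fits called it (lowest adjusted p = 0.00842).

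The ratio of Vegfc to Vegfd reads in a library was 0.169 ± 0.025 in normoxic proliferating cells, 0.968 ± 0.305 in chondrocyte, 0.106 ± 0.015 in osteoblast and 0.467 ± 0.045 in smooth muscle cultures (mean ± SD, n = 4). At 0.5% O2 it was 0.108 ± 0.014, 2.16 ± 0.410, 0.194 ± 0.0068 and 0.0613 ± 0.038 (n = 3). Chondrocyte cultures thus had the highest ratio at both oxygen levels, and hypoxic chondrocyte libraries were the only ones besides 1 normoxic chondrocyte library with more Vegfc than Vegfd reads. Hypoxia raised the ratio in chondrocyte and osteoblast cultures and lowered it in proliferating and smooth muscle cultures, without overlap between the oxygen levels.

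Angpt1, the ligand that activates Tek, was low in proliferating cells and rose in every normoxic differentiated culture. Angpt1 stood at 1.51, 1.58, 2.09 and 1.75 CPM at 21% O2 and 1.79, 1.54 and 1.99 CPM at 0.5% O2 in proliferating cells, with no oxygen change called (log2 0.10, SE 0.23, adjusted p = 0.723). Angpt1 stood at 49.6, 50.0, 54.5 and 44.7 CPM at 21% O2 and 0.225, 1.8 and 0.463 CPM at 0.5% O2 in smooth muscle cultures. The hypoxic values rest on 3, 18 and 5 reads. The fall was a log2 change of -5.94 (SE 0.30, adjusted p = 1.11e-10), the largest oxygen change of any member, and it was -7.31 by library size alone. Without hypoxic smooth muscle replicate 2, the library with 18 reads, it was -7.165.

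Chondrocyte cultures held Angpt1 at 19.1, 27.8, 27.7 and 42.6 CPM at 21% O2 and 8.99, 12.5 and 14.2 CPM at 0.5% O2. Angpt1 stood at 33.4, 33, 33.1 and 13.6 CPM at 21% O2 and 15.5, 14.8 and 14 CPM at 0.5% O2 in osteoblast cultures. Hypoxia lowered Angpt1 in the chondrocyte cultures without overlap (log2 -1.31, SE 0.28, adjusted p = 0.0138). The osteoblast fall (-0.93, SE 0.29, adjusted p = 0.0250) is less firm: normoxic replicate 4 lay below all 3 hypoxic libraries, and the call was lost without any 1 of the other 6 libraries (highest adjusted p = 0.0769).

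Against proliferating cells, Angpt1 rose 18-fold, 17.1-fold and 30.3-fold in normoxic chondrocyte, osteoblast and smooth muscle cultures (adjusted p = 8.11e-08, 1.18e-06 and 5.99e-15). At 0.5% O2 the rises were 6.65-fold and 8.3-fold in chondrocyte and osteoblast cultures (adjusted p = 5.73e-08 and 9.92e-11). No rise was called in hypoxic smooth muscle cultures, where the log2 difference was -1.03 (SE 0.64, adjusted p = 0.172). It was called as a fall by library size alone (-2.31, adjusted p = 0.00538), with limma-voom (-1.48, adjusted p = 0.0416) and without hypoxic smooth muscle replicate 2 (-2.28). Leaving out 1 library each, the difference ranged from -2.28 to -0.54. The interactions were -1.41, -1.0 and -6.02 (adjusted p = 0.00572, 0.0364 and 5.99e-12). The osteoblast one lost its call without any 1 of 11 of the 14 libraries (highest adjusted p = 0.093), and the smooth muscle one was -7.23 without hypoxic smooth muscle replicate 2 and -7.35 by library size alone.

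Angpt2, the competing ligand, stayed below 5 CPM in every library and took another course. Proliferating cells held Angpt2 at 1.43, 1.04, 1.39 and 3.82 CPM at 21% O2 and 1.72, 1.51 and 2.43 CPM at 0.5% O2, overlapping ranges (log2 0.069, SE 0.43, adjusted p = 0.898). Osteoblast cultures held Angpt2 at 0.664, 1.14, 1.66 and 0.544 CPM at 21% O2 and 2.79, 3.4 and 2.75 CPM at 0.5% O2, a 2.97-fold rise (SE 0.37, adjusted p = 0.00591) where Angpt1 fell. Smooth muscle cultures held Angpt2 at 2.94, 2.93, 3.07 and 4.32 CPM at 21% O2 and 0.15, 0 and 1.76 CPM at 0.5% O2. That fall, -2.34 on the log2 scale (SE 0.66, adjusted p = 0.00483; -3.7 by library size alone), rests on 21 hypoxic reads of which 19 came from replicate 3, and was -5.17 without that library. Chondrocyte cultures held Angpt2 at 0.123, 0.162, 0.213 and 0.255 CPM at 21% O2 and 0.483, 0.236 and 0.526 CPM at 0.5% O2, in all 21 and 37 reads, too few for the test of oxygen.

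Chondrocyte culture lowered Angpt2 against proliferating cells, by log2 changes of -3.24 at 21% O2 and -2.16 at 0.5% O2 (adjusted p = 1.02e-04 and 2.77e-04). The other calls for Angpt2 were weak. Its rises of 0.88 in normoxic smooth muscle and 0.65 in hypoxic osteoblast cultures (adjusted p = 0.0386 and 0.0313) lost their calls without any 1 of 7 of 8 and 3 of 6 libraries (highest adjusted p = 0.108 and 0.119). Without normoxic proliferating replicate 4 the first was 1.43. The normoxic osteoblast change was -0.86 (adjusted p = 0.136), and -0.30 without normoxic proliferating replicate 4. The hypoxic smooth muscle change was -1.47 (adjusted p = 0.143, not called). It was called by library size alone (-2.73, adjusted p = 0.0120), with limma-voom (-2.72, adjusted p = 0.0153), with all 28 libraries in 1 edgeR fit (-1.59, adjusted p = 0.0316), and without hypoxic smooth muscle replicate 3 (-4.29). Interactions were called in osteoblast (1.55, adjusted p = 0.0416) and smooth muscle cultures (-2.37, adjusted p = 0.0201), and were lost without any 1 of 9 and of 3 of the 14 libraries (highest adjusted p = 0.0956 and 0.0756). The osteoblast one was also lost by library size alone (1.44, adjusted p = 0.0599) and with limma-voom (1.36, adjusted p = 0.0535). The osteoblast interaction was 0.99 without normoxic proliferating replicate 4, and the smooth muscle one -5.20 without hypoxic smooth muscle replicate 3 and -3.68 by library size alone. In chondrocyte cultures the interaction was 1.11 (adjusted p = 0.215), and 0.54 without normoxic proliferating replicate 4.

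The balance of the 2 angiopoietins shifted widely over the normoxic groups. There were 1.13 ± 0.498 reads of Angpt1 for each read of Angpt2 in normoxic proliferating cells, 156 ± 18.9 in chondrocyte, 31.0 ± 13.4 in osteoblast and 15.5 ± 3.46 in smooth muscle cultures (mean ± SD, n = 4). At 0.5% O2 the ratio was 0.959 ± 0.124, 32.8 ± 17.9 and 5.01 ± 0.614 in proliferating, chondrocyte and osteoblast cultures (n = 3). Hypoxic and normoxic libraries did not overlap in chondrocyte or osteoblast cultures, and overlapped in proliferating cells. The chondrocyte ratios rest on few Angpt2 reads, 4, 4, 6 and 7 in the normoxic and 15, 6 and 16 in the hypoxic libraries. Angpt2 counts may also hold reads of Mcph1. In hypoxic smooth muscle cultures the ratio was 1.5 and 0.263 in the libraries with Angpt2 reads, and the remaining library had 18 Angpt1 reads and 0 of Angpt2.

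**Figure D5:**
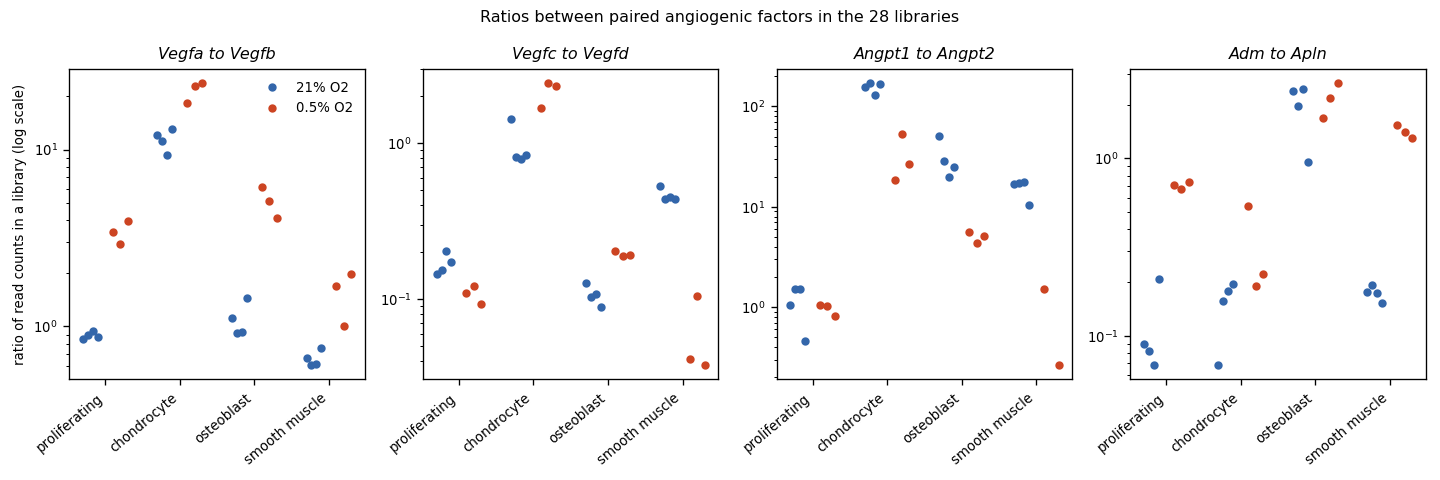
Ratio of read counts between paired factors in each library (vertical axis, log scale), by culture (horizontal axis) and oxygen level (blue 21%, n = 4; red 0.5%, n = 3); the hypoxic smooth muscle library with 0 Angpt2 reads is not drawn in that panel. The Vegfa to Vegfb ratio is higher at 0.5% O2 in each culture, from 0.890 to 3.44 on average in proliferating cells, while the Angpt1 to Angpt2 ratio is lower at 0.5% O2 in the chondrocyte and osteoblast cultures.

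Angptl4, known as a target of PPAR factors, glucocorticoids and HIF, did not follow the other hypoxia-responsive members. Angptl4 stood at 2.82, 3.44, 3.35 and 2.66 CPM at 21% O2 and 4.13, 4.89 and 2.53 CPM at 0.5% O2 in proliferating cells. Angptl4 stood at 3.34, 4.75, 4.06 and 4.67 CPM at 21% O2 and 5.55, 7.48 and 3.33 CPM at 0.5% O2 in smooth muscle cultures. The ranges overlapped in both, and the log2 oxygen changes were 0.38 (SE 0.22, adjusted p = 0.140) and 0.43 (SE 0.28, adjusted p = 0.168), neither called. By library size alone the smooth muscle change was -0.94 (adjusted p = 0.00590). Leaving out hypoxic proliferating replicate 3 gave 0.61 and a call (adjusted p = 0.0149), and leaving out hypoxic smooth muscle replicate 3 gave 0.67 and a call (adjusted p = 0.0275). Over all fits without 1 library, the changes ranged from 0.17 to 0.61 in proliferating cells and from 0.13 to 0.67 in smooth muscle cultures.

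Chondrocyte cultures held Angptl4 at 0.123, 0, 0.64 and 0.146 CPM at 21% O2 and 0.29, 0.197 and 0.164 CPM at 0.5% O2. Angptl4 stood at 0.279, 0.67, 0.441 and 0.0961 CPM at 21% O2 and 0.503, 0.206 and 0.246 CPM at 0.5% O2 in osteoblast cultures. These are 26, 19, 41 and 26 reads per group, so an oxygen response could not be tested in chondrocyte cultures and was poorly bounded in osteoblast cultures (-0.21, SE 0.64). Against proliferating cells Angptl4 fell in both: log2 changes were -3.65 and -3.01 at 21% O2 (adjusted p = 7.69e-05 and 7.11e-05), and -4.12 and -3.6 at 0.5% O2 (adjusted p = 5.70e-07 and 6.98e-07). The first was -4.90 without normoxic chondrocyte replicate 3, which held 18 of the 26 reads. Normoxic smooth muscle cultures had 1.42-fold more Angptl4 than proliferating cells (adjusted p = 0.0115), with overlapping libraries, and hypoxic ones differed by 0.62 (adjusted p = 0.129; -0.66 by library size alone), a difference of 0.86 and called without hypoxic smooth muscle replicate 3 (adjusted p = 0.0403). No interaction was called for Angptl4 with TMM scaling (log2 -0.45, -0.54 and 0.096), and the osteoblast one ranged from -1.002 to -0.12 leaving out 1 library each. The smooth muscle one reversed to -1.24 by library size alone and was then called lower (edgeR adjusted p = 0.00390). Of the glucocorticoid target genes tested, 7 of 10 rose and 2 fell in chondrocyte, 9 of 10 rose and 0 fell in osteoblast, and 6 of 9 rose and 3 fell in smooth muscle cultures at 21% O2, against 37.7%, 40.9% and 40.8% of all genes called higher. Of 14 PPAR target and adipocyte genes, 8, 9 and 8 were tested in those cultures, of which 7, 8 and 3 rose and 0, 1 and 2 fell, against the same shares.

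Apln, the apelin precursor, rose at 0.5% O2 in each culture (in smooth muscle cultures it was lower by library size alone), most in the osteoblast cultures, where it was lowest at 21% O2. Osteoblast cultures held Apln at 7.02, 7.92, 7.29 and 11.2 CPM at 21% O2 and 179.7, 164 and 161 CPM at 0.5% O2, a 20.1-fold rise (log2 SE 0.17, adjusted p = 2.44e-07). Proliferating cells held Apln at 67.4, 72.1, 70.8 and 33.4 CPM at 21% O2 and 275, 284 and 279 CPM at 0.5% O2, a 4.76-fold rise (SE 0.27, adjusted p = 6.16e-04). Normoxic replicate 4 lay far below the other 3. Chondrocyte cultures held Apln at 131, 189, 168 and 131 CPM at 21% O2 and 242, 208 and 205 CPM at 0.5% O2. The hypoxic libraries lay above the normoxic ones, but the 1.41-fold rise (SE 0.13, adjusted p = 0.0238) lost its call without any 1 of the 3 hypoxic libraries (highest adjusted p = 0.087). Smooth muscle cultures held Apln at 48.2, 46.2, 46.8 and 47.8 CPM at 21% O2 and 73.2, 92.3 and 95.9 CPM at 0.5% O2. This 1.92-fold rise (log2 0.94, SE 0.099, adjusted p = 4.87e-07) reversed to -0.43 by library size alone (adjusted p = 7.89e-04).

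At 21% O2 Apln rose 2.67-fold in chondrocyte cultures (adjusted p = 5.43e-04) and fell in osteoblast cultures, by a log2 change of -2.8 (adjusted p = 5.98e-06). The smooth muscle change was -0.32 (adjusted p = 0.221), and -0.53 with a call (adjusted p = 3.82e-08) without normoxic proliferating replicate 4. At 0.5% O2 each differentiated culture was below proliferating cells, with log2 changes of -0.36, -0.73 and -1.56 in chondrocyte, osteoblast and smooth muscle cultures (adjusted p = 3.78e-04, 1.02e-07 and 6.27e-08), and the last was -2.84 by library size alone. All 3 interactions were called, at -1.75, 2.12 and -1.27 (adjusted p = 8.94e-04, 9.65e-05 and 0.00133), the last -2.61 by library size alone.

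Adm, the adrenomedullin precursor, had the widest oxygen response of the members in proliferating cells. Adm stood at 6.1, 5.93, 4.84 and 7.0 CPM at 21% O2 and 194, 191 and 206 CPM at 0.5% O2 in proliferating cells, a 34.4-fold rise (log2 5.1, SE 0.087, adjusted p = 5.25e-14). Adm stood at 16.8, 15.7, 17.9 and 10.7 CPM at 21% O2 and 305, 359 and 429.6 CPM at 0.5% O2 in osteoblast cultures, a 23.9-fold rise (SE 0.19, adjusted p = 3.88e-07). Adm stood at 8.57, 8.99, 8.18 and 7.29 CPM at 21% O2 and 112, 129 and 125 CPM at 0.5% O2 in smooth muscle cultures, a 15.4-fold rise (SE 0.10, adjusted p = 5.90e-14). That log2 change was 3.95, and 2.57 by library size alone. Chondrocyte cultures were unlike these, with Adm at 9.04, 29.7, 30.3 and 25.7 CPM at 21% O2 and 130.0, 39.9 and 45.8 CPM at 0.5% O2. Although the ranges did not overlap, hypoxic replicate 1 was about 3 times the others and normoxic replicate 1 about 3 times below the others, and the 3.04-fold difference (SE 0.60, adjusted p = 0.125) was not called by edgeR. It was called by DESeq2's Wald test (log2 1.6, adjusted p = 0.0347) and with all 28 libraries in 1 edgeR fit (1.61, adjusted p = 0.00163). Without hypoxic chondrocyte replicate 1 the log2 change was 0.86 (edgeR adjusted p = 0.313).

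At 21% O2 Adm rose 4.16-fold in chondrocyte, 2.65-fold in osteoblast and 1.44-fold in smooth muscle cultures (adjusted p = 3.95e-04, 4.10e-05 and 0.00191). At 0.5% O2 it rose 1.85-fold in osteoblast cultures (adjusted p = 1.21e-06) and fell in smooth muscle cultures (-0.57, adjusted p = 5.39e-05; -1.85 by library size alone). The chondrocyte difference of -1.46 (SE 0.54, adjusted p = 0.0711) was -2.20 and called without hypoxic chondrocyte replicate 1 (adjusted p = 1.61e-17), and was also called by library size alone (-1.8, adjusted p = 0.0370) and by DESeq2's Wald test (adjusted p = 0.0177). The oxygen response was lower than in proliferating cells in chondrocyte (-3.49, SE 0.67, adjusted p = 0.00160) and smooth muscle cultures (-1.12, adjusted p = 1.54e-07; -2.45 by library size alone). The former was -4.23 without hypoxic chondrocyte replicate 1. In osteoblast cultures the interaction of -0.48 (adjusted p = 0.0738) was not called. It was called by library size alone (-0.60, adjusted p = 0.0258), with a minimum of 10 counts in every library (-0.54, adjusted p = 0.0414) and by DESeq2's Wald test (-0.50, adjusted p = 0.0493). It was also called without any 1 of normoxic proliferating replicate 4, normoxic osteoblast replicate 4 (-0.62, adjusted p = 0.00262) or hypoxic osteoblast replicate 3. The ratio of Adm to Apln reads was 0.113 ± 0.065, 0.151 ± 0.057, 1.94 ± 0.694 and 0.175 ± 0.017 in normoxic proliferating, chondrocyte, osteoblast and smooth muscle cultures (n = 4). It was 0.706 ± 0.033, 0.317 ± 0.191, 2.18 ± 0.483 and 1.41 ± 0.117 at 0.5% O2 (n = 3), and osteoblast cultures were highest at both levels.

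The receptors through which these factors act on vessels were in part at or near 0 in the cultures. Kdr, Flt4, Tie1 and Aplnr had group means of at most 0.140 CPM. Tek reached 1.5 CPM in normoxic smooth muscle cultures, the group with the most Angpt1, and had 0 reads in the hypoxic ones. Flt1, which binds Vegfa, Vegfb and Pgf, was present at 45.2 to 333 CPM, and the neuropilins Nrp1 and Nrp2 at 33.2 to 413 and 96.5 to 489 CPM. Of 13 receptor genes, low oxygen raised 4 and lowered 2 of 7 tested in proliferating cells, 3 and 2 of 7 in chondrocyte, 3 and 3 of 8 in osteoblast and 2 and 7 of 9 in smooth muscle cultures. By library size alone the last was 1 and 8. The shares of all genes raised and lowered, against which this and the following lists are read, were 33.1% and 32.3% in proliferating, 10.4% and 11.8% in chondrocyte, 27.0% and 27.3% in osteoblast and 35.4% and 40.2% in smooth muscle cultures.

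Flt1 rose at 0.5% O2 in proliferating cells (log2 0.28, adjusted p = 1.36e-04) and osteoblast cultures (0.83, adjusted p = 2.80e-05), was 0.31 and not called in chondrocyte cultures, and was 0.58 in smooth muscle cultures, reversing to -0.79 by library size alone. Its call in proliferating cells was lost with all 28 libraries in 1 edgeR fit (0.23, adjusted p = 0.111). Nrp1 changed by -0.51, 0.36, -1.09 and -1.12 in proliferating, chondrocyte, osteoblast and smooth muscle cultures, all called. The chondrocyte rise of Nrp1 lost its call without hypoxic chondrocyte replicate 2 (0.30, adjusted p = 0.061). Nrp2 rose in chondrocyte (0.71) and osteoblast cultures (0.77) and fell in smooth muscle cultures (-1.93). Ackr3, a scavenger receptor that binds adrenomedullin as well as chemokines, rose by 2.07, 1.55 and 0.79 in proliferating, chondrocyte and osteoblast cultures and fell by 1.26 in smooth muscle cultures (-2.63 by library size alone).

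The adrenomedullin receptor subunits differed sharply between cultures. Calcrl stood at 58.0 CPM in normoxic smooth muscle and 37.7 CPM in normoxic osteoblast cultures, and fell at 0.5% O2 by 3.11 in osteoblast (adjusted p = 0.00104) and 2.71 in smooth muscle cultures (adjusted p = 5.64e-10). Ramp3 was 75.8 CPM in normoxic proliferating cells and 0.172, 2.36 and 3.89 CPM in normoxic chondrocyte, osteoblast and smooth muscle cultures. At 0.5% O2 Ramp3 was 193 CPM in smooth muscle cultures, a log2 rise of 5.69 (4.32 by library size alone), and Calcrl was 8.41 CPM in that group. Ramp2 was highest in normoxic osteoblast cultures (49.9 CPM) and fell there at 0.5% O2 by 2.39 (adjusted p = 0.00231).

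Among 10 other ligands of the same families, Adm2, another peptide for Calcrl receptors, rose with low oxygen in every culture. Its log2 changes were 3.49, 1.45, 4.61 and 7.68 (6.32 by library size alone) in proliferating, chondrocyte, osteoblast and smooth muscle cultures. Of the ligands tested, 3 of 3, 2 of 5, 2 of 5 and 2 of 4 rose, and 2 fell, both in smooth muscle cultures. Without normoxic chondrocyte replicate 4 the chondrocyte ligands called were 4 rather than 2, and without normoxic osteoblast replicate 4 the osteoblast ones were 5 rather than 2. The chondrocyte count includes Angpt4, a further Tek ligand (1.37, adjusted p = 1.35e-04). Of 15 further angiogenic growth factors, 13 were found by symbol among the counted genes. Low oxygen raised 6 and lowered 1 of 10 tested in proliferating cells and 3 and 3 of 10 in chondrocyte cultures. It raised 3 and lowered 4 of 10 in osteoblast and 4 and 6 of 11 in smooth muscle cultures (2 and 8 by library size alone).

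Most secreted inhibitors of angiogenesis that could be tested were higher in the normoxic differentiated cultures. In normoxic chondrocyte, osteoblast and smooth muscle cultures 6 of 8, 6 of 8 and 5 of 7 tested inhibitors were higher than in proliferating cells, against 37.7%, 40.9% and 40.8% of all genes, and 2 were lower in each. Thbs1, thrombospondin 1, rose by 5.95, 5.68 and 3.57 on the log2 scale, from 184 CPM to 10826, 9115 and 2102 CPM. Low oxygen raised 4 and lowered 0 of 6 inhibitors in proliferating cells, 2 and 3 of 9 in chondrocyte, 3 and 1 of 8 in osteoblast and 1 and 4 of 7 in smooth muscle cultures (1 and 6 by library size alone). Thbs1 fell by 4.48 in hypoxic smooth muscle cultures, to 90.1 CPM. Thbs2 rose by 0.57 in proliferating cells and fell by 1.53, 2.71 and 2.24 in the 3 differentiated cultures.

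As background for the oxygen comparisons, 19 of 20 HIF target genes outside the member list were found by symbol among the counted genes. All 19 could be tested for oxygen. Low oxygen raised 19, 17, 19 and 19 of them in proliferating, chondrocyte, osteoblast and smooth muscle cultures. Their median log2 changes were 2.85, 1.41, 3.20 and 3.94 (18 raised, median 2.57, by library size alone in the last). The largest rises were of Car9 (6.61) and Ankrd37 (5.06) in proliferating cells, Ankrd37 (2.37) and Ak4 (2.26) in chondrocyte, Car12 (7.67) and Ak4 (5.96) in osteoblast and Pgk1 (7.47) and Car12 (7.1) in smooth muscle cultures. Normoxic chondrocyte cultures, in which Vegfa, Pgf, Apln and Adm were higher than in normoxic proliferating cells, had 15 of the 19 HIF target genes higher and 0 lower (median 1.86), led by Car9 (5.22) and P4ha2 (4.44). In normoxic osteoblast cultures 8 were higher and 7 lower, and in normoxic smooth muscle cultures 4 higher and 11 lower of 18. Of all genes, 37.7%, 40.9% and 40.8% were higher in these 3 comparisons, and 37.2%, 37.8% and 38.9% lower. Against hypoxic proliferating cells, 5 of 19 were higher and 13 lower in chondrocyte cultures (median -0.64). They were 9 and 9 in osteoblast and 8 and 7 in smooth muscle cultures. Of all genes, 34.9%, 36.2% and 33.8% were higher there, and 34.6%, 35.1% and 36.2% lower. A part of HIF in the normoxic levels of the members was not tested.

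For the members other than Angpt1, the genes with the most similar course were found by Pearson's r of log2 CPM over the 8 group means, among 13287 genes, as a description of 8 points that share their libraries. The closest to Vegfa was P4ha1 (r = 0.974), to Pgf Vldlr (0.993), to Apln Ak4 (0.966) and to Adm Adamtsl5 (0.990), and P4ha1 and Ak4 are on the list of HIF target genes. Vegfb was closest to Adh5 (0.989), Vegfc to Fam124a (0.994) and Vegfd to Asb11 (0.968). Angpt2 was closest to Pak6 (0.978) and Angptl4 to Aif1l (0.997).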

How the data were processed

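Polyadenylated RNA of 28 O9-1 libraries was sequenced from a stranded kit, per the labels. The authors deposited raw read counts per Ensembl gene, and 10 tables of pairwise comparisons with log2 fold changes and p-values, per the file headers. The submitters' processing notes name HISAT2 2.0.5, StringTie 1.3.3b, featureCounts 1.5.0-p3 and the build mm10, without their order, and whether strand was used in counting is not given in the sources used here. The 70 columns of per-library values in those tables were not used here. The 10 members and all gene lists were chosen with earlier results of these data known.

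Counts were tested with edgeR 4.0.16 (R 4.3.3; TMM factors, filterByExpr, glmQLFit and glmQLFTest, robust, two-sided) on the libraries of the 2 groups compared, or of 4 groups for an interaction. Benjamini-Hochberg adjustment ran over all genes tested, and a gene was called at an adjusted p under 0.05. SE is the size of the log2 change divided by the root of F. Levels are counts per 1000000 of TMM-scaled library size over all 28 libraries. Levels per kilobase used the union of GENCODE exons. Named genes are all members, the receptors, up to 2 rises and 2 falls in each list, and the genes most alike (for Angpt1 not reported here). Car9, P4ha2, Thbs1 and Thbs2 are described over comparisons chosen after their values were seen. Alternatives were library size alone, leaving out mitochondrial genes and Rn7sk, DESeq2 1.42.0 size factors and Wald test, limma-voom (limma 3.58.1), other filters, a fold threshold of 1 on the log2 scale, all 28 libraries in 1 fit, a replicate block and leaving out each library. The fits were tested on simulated data. Across the 36 pairs of libraries within groups, chi-square per degree of freedom of the counts was 2.89 to 97.1, so no library was a repeat of another. The authors deposited values for 100 of these member changes. All 77 called here had the same sign there, and over these 77 the median difference was 0.016 (log2) and the largest 0.37.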

Additional observations from a re-analysis of the deposited data

Results flagged for a closer look

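Of 40 sets of 4 normoxic libraries (10 genes in 4 cultures), 6 held a library far from the other 3 by Dixon's criterion, where chance gives about 1 in 20. Vegfd was 106 CPM in normoxic osteoblast replicate 4, against 148 to 152 CPM in the other libraries. Pgf was 47.5 CPM in normoxic chondrocyte replicate 4, against 27.4 to 29.0 CPM. Angpt1 was 13.6 CPM in normoxic osteoblast replicate 4, against 33.0 to 33.4 CPM. Angpt2 was 3.82 CPM in normoxic proliferating replicate 4 and 4.32 CPM in normoxic smooth muscle replicate 4, against 1.04 to 1.43 and 2.93 to 3.07 CPM. Apln was 33.4 CPM in normoxic proliferating replicate 4, against 67.4 to 72.1 CPM. All 6 are replicate 4, which has no hypoxic counterpart, and replicate 4 lay outside the range of the other 3 in 32 of 40 sets, against 15, 15 and 18 for replicates 1, 2 and 3. Whether the number 4 stands for a separate culture or day was not tested.

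The oxygen response of a differentiated culture differed from that of proliferating cells, by the interaction test of edgeR at an adjusted p under 0.05, in 22 cases. In chondrocyte cultures the differences in log2 response were -1.14 for Vegfa, 0.94 for Vegfc, -2.74 for Pgf, -1.41 for Angpt1, -1.75 for Apln and -3.49 for Adm. In osteoblast cultures they were 0.66 for Vegfa, 0.92 for Vegfc, -0.58 for Vegfd, -1.51 for Pgf, -1.0 for Angpt1, 1.55 for Angpt2 and 2.12 for Apln. In smooth muscle cultures they were 0.95 for Vegfa, 1.67 for Vegfb, -1.42 for Vegfc, 0.85 for Vegfd, -1.06 for Pgf, -6.02 for Angpt1, -2.37 for Angpt2, -1.27 for Apln and -1.12 for Adm. By library size alone, those of Vegfa (-0.39) and Vegfd (-0.49) reversed and were called lower, and that of Vegfb was 0.33. The response of Apln was lower in chondrocyte and higher in osteoblast cultures than in proliferating cells.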

How the results depend on the processing

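Of 2308 alternative values for 128 member changes, 2125 kept direction and side of the threshold, 104 lost the call, 37 gained it and 42 reversed, and 78 changes kept both under every alternative. In each value below the cause was not tested. By library size alone, Vegfa (-0.88), Vegfd (-0.59) and Angptl4 (-0.66) reversed in hypoxic smooth muscle against hypoxic proliferating cells. Angptl4 (-0.94), Apln (-0.43) and the receptor Flt1 (-0.79) reversed in hypoxic against normoxic smooth muscle cultures. Vegfa (-0.39), Vegfd (-0.49) and Angptl4 (-1.24) reversed in the smooth muscle interaction, where each was then called lower. The remaining reversals were of changes that were not called. Those by library size alone were Vegfd in normoxic chondrocyte (-0.20) and hypoxic against normoxic osteoblast cultures (-0.11), and Vegfc (-0.064) and Angpt2 (-0.0083) in hypoxic against normoxic proliferating cells. Vegfc there was also -0.031 with no filter and -0.046 with all 28 libraries in 1 fit, and the chondrocyte interaction of Angptl4 was 0.46 with limma-voom. Other scalings, filters or tools each ended some calls of Vegfb, Pgf, Angpt2, Angptl4 and Adm in normoxic smooth muscle, of Apln in hypoxic chondrocyte, of Angpt2 in hypoxic osteoblast and of Vegfb, Vegfd and Adm in hypoxic smooth muscle against proliferating cells. For oxygen they ended calls of Vegfb in proliferating cells, of Vegfc, Angpt1 and Apln in chondrocyte, of Vegfb and Angpt1 in osteoblast and of Vegfd in smooth muscle cultures, and among the interactions those of Vegfc and Angpt1 in chondrocyte and of Vegfd, Angpt1 and Angpt2 in osteoblast cultures. With replicates 1 to 3 only, chosen after seeing the data, oxygen changes were -0.016 for Vegfc in proliferating cells, 0.084 for Vegfd in chondrocyte and -0.071 for Vegfd in osteoblast cultures, and in the osteoblast interactions Angpt2 (0.77) lost and Adm (-0.70) gained a call.

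Leaving out 1 library each, 13 of 99 called changes lost their call and 11 of 29 others gained one. Ranges that crossed 0 were Vegfd in normoxic chondrocyte (-0.13 to 0.34), Vegfa in hypoxic osteoblast (-0.078 to 0.034) and Vegfc in hypoxic smooth muscle cultures (-0.83 to 0.20) against proliferating cells. For oxygen they were Vegfc (-0.096 to 0.12) and Angpt2 (-0.17 to 0.62) in proliferating cells, Vegfd in chondrocyte (-0.68 to 0.084) and osteoblast cultures (-0.071 to 0.11), and Angptl4 in osteoblast cultures (-0.68 to 0.030). The interaction of Angptl4 ranged from -0.82 to 0.81 in chondrocyte and from -0.19 to 0.34 in smooth muscle cultures.

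Members called in normoxic smooth muscle against proliferating cells went from 8 to 4 with all 28 libraries in 1 fit and to 5 to 9 leaving out 1 library. Those called for oxygen in chondrocyte cultures went from 5 to 2 with no filter and to 3 to 5 leaving out 1 library. The osteoblast interaction went from 7 to 4 with all 28 libraries in 1 fit. Requiring a log2 change of at least 1 leaves fewer by construction: 2 members in normoxic smooth muscle, 5, 4 and 3 in hypoxic chondrocyte, osteoblast and smooth muscle cultures against proliferating cells, 3 and 5 for oxygen in chondrocyte and osteoblast cultures, and 3 for the osteoblast interaction. All genes called with and without that threshold were 5069 and 10760, 6387 and 11359, and 5727 and 11626 in normoxic chondrocyte, osteoblast and smooth muscle against proliferating cells, and 4567 and 9975, 4912 and 10227, and 5839 and 9858 in the hypoxic ones. For oxygen they were 2628 and 9261, 891 and 3157, 3252 and 7890, and 7372 and 11271 in proliferating, chondrocyte, osteoblast and smooth muscle cultures, and for the chondrocyte and osteoblast interactions 2153 and 6654, and 4128 and 8394.

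Correlations of residuals between libraries that share replicate number 1, 2 or 3 were -0.08 to 0.118. In 0 of 10 comparisons were they above 0.1 for every pair, so the numbers were not used as pairs. Replicate 4 was left out of these correlations, so they cannot show whether its libraries deviated together. With a replicate block, 119 member changes kept direction and side of the threshold, 4 lost the call, 2 gained it and 3 reversed. Lost were Vegfb in normoxic smooth muscle (-0.13) and Angpt2 in hypoxic osteoblast against proliferating cells (0.67), Apln for oxygen in chondrocyte cultures (0.43) and the osteoblast interaction of Angpt2 (0.84). Gained were Angpt2 in hypoxic smooth muscle against proliferating cells (-2.14) and the osteoblast interaction of Adm (-0.69). The reversals with the block were small: for oxygen, Vegfc in proliferating cells (-0.0071) and Vegfd in chondrocyte (0.0054) and osteoblast cultures (-0.075). Depth limits Angpt2 and Angptl4, with 21 to 26 reads in normoxic chondrocyte cultures, where the read filter left them out of the test of oxygen. Levels moved by more than 1 SD in 34 of 80 member and group values by library size alone, in 5 with DESeq2 size factors and in 5 without mitochondrial genes and Rn7sk. Leaving out those genes, no member change lost or gained its call.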

Other observations

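The ratio of Vegfa to Pgf reads, ligands that share the receptor Flt1, set the osteoblast cultures apart. Libraries held 20.8 ± 6.0 Vegfa reads for each Pgf read in normoxic proliferating cells (mean ± SD, n = 4), 7.16 ± 1.55 in chondrocyte, 2.85 ± 0.809 in osteoblast and 20.2 ± 2.72 in smooth muscle cultures. At 0.5% O2 the ratio was 5.95 ± 0.697, 6.27 ± 1.48, 3.63 ± 0.539 and 23.6 ± 3.95 in the same order (n = 3). Low oxygen thus brought the ratio down in proliferating cells, without overlap between the oxygen levels, while the ranges overlapped in the 3 differentiated cultures.

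Outside these families, growth factors that also act on vessels were counted against proliferating cells at 21% O2. Of 15 such genes, 13 were found by symbol among the counted genes. Of those tested, 8 of 10 were higher and 0 lower in chondrocyte, and 7 of 11 higher and 1 lower in osteoblast cultures. In smooth muscle cultures 7 of 12 were higher and 2 lower. Of all genes, 37.7% were higher and 37.2% lower in chondrocyte, 40.9% and 37.8% in osteoblast and 40.8% and 38.9% in smooth muscle cultures, so the totals called are near those of all genes. Igf1, insulin-like growth factor 1, rose by 9.23, 9.36 and 7.12 on the log2 scale, from 16 reads in all 4 proliferating libraries (mean 0.0999 CPM) to means of 55.8, 61.5 and 13 CPM.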
